A study of Mus musculus with 4 samples.

Results

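The Smad family comprises the intracellular proteins that carry the signal of bone morphogenetic proteins (BMPs), TGF-β and activins from the cell surface to the nucleus. Its 8 mouse genes, *Smad1*, *Smad2*, *Smad3*, *Smad4*, *Smad5*, *Smad6*, *Smad7* and *Smad9*, were taken by name from a table of 55267 gene entries, and each name matched 1 entry. The table came from poly(A) RNA-seq of cultured adult mouse muscle stem cells (MuSCs), which repair skeletal muscle. The comparison asked which transcripts had changed 1 h after BMP6 was added. MuSCs were isolated from 9-week-old female mice carrying the C57BL/6N(Tg(Pax7-EGFP)Tajb) transgene, in which the stem cell gene *Pax7* drives a green fluorescent protein, and were sorted for that fluorescence after 1 day of culture and cultured further. All cells were then kept for 6 h in serum-free medium with 200 ng/mL of the soluble receptor domain BMPR1A-Fc, which takes up BMPs left from serum. The 2 BMP6 libraries came from cells given 100 ng/mL BMP6 for 1 h, and the 2 control libraries from cells given the vehicle, 4 mM HCl with 0.1% BSA, for 1 h. The labels gave each BMP6 library a control library of the same biological replicate number, named there as a batch, and these are called pair 1 and pair 2 below.

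BMP receptors phosphorylate the receptor-regulated SMAD1, SMAD5 and SMAD9, and TGF-β and activin receptors phosphorylate SMAD2 and SMAD3. The phosphorylated proteins join SMAD4, the partner common to both branches, enter the nucleus and regulate genes. SMAD6 and SMAD7 are inhibitory: they lack the phosphorylated tail of the others, bind activated receptors and recruit ubiquitin ligases, and their genes are known as targets of the pathway that they dampen. In MuSCs, BMP signaling is known for holding back differentiation.

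Levels are given in TPM (transcripts per 1000000 transcripts), a unit that divides reads by transcript length and by the library total, so that genes can be compared with each other. Reads rebuilt from the deposited coverage summed to between 108138615 and 111966627 per library. Muscle markers were present in all libraries, from *Pax7* at 8.29 to 11.7 TPM to *Myog*, which drives differentiation, at 4400 to 5472 TPM. All 8 muscle markers were tested and their summed level was 6701 and 6978 TPM in the BMP6 libraries and 6888 and 7662 TPM in the controls. Of the 6 endothelial markers 1 was tested, and they summed to 1.93 and 2.15 TPM with BMP6 and 2.38 and 1.43 TPM without, with *Kdr* at 0 throughout and *Tek* the highest at up to 1.87 TPM. Of the 6 immune markers 1 was tested, and they summed to 1.53 and 2.54 TPM against 1.84 and 1.36 TPM, with *Ptprc* at 0 in 3 of the 4 libraries and *Cd68* the highest at up to 1.68 TPM. The 6 fibro-adipogenic markers, 4 of them tested, summed to 371 and 275 TPM against 364 and 308 TPM. *Col1a2* was the highest at 186 to 240 TPM, followed by *Col3a1* at 69.4 to 109 TPM and *Ly6a* at 18.7 to 24.1 TPM. *Dcn* was at 0.955 to 1.92 TPM, *Lum* at or under 0.270 TPM and *Pdgfra* at or under 0.164 TPM. The 6 pericyte and smooth muscle markers, 4 of them tested, summed to 2958 and 2919 TPM against 3109 and 3262 TPM, and nearly all of that was *Acta2* at 2906 to 3251 TPM.

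Of the 8 Smad genes, the 2 inhibitory ones stood far higher after BMP6, about 8-fold and 11-fold in the group means. *Smad7* passed the test in the comparison of the 2 groups, and *Smad6* passed it with the pairing of the libraries taken into account. Without the filter on low values described next, *Smad7* alone passed, and only with the pairing. None of the receptor-regulated genes nor *Smad4* passed either test. Genes were compared with limma on log2(TPM + 1) among 13128 entries with a mean of at least 1 TPM, 10645 of them with a gene name that allowed a call, and a call needed a change of at least 2-fold with a Benjamini-Hochberg adjusted p below 0.1. By this rule 0.225% of those genes were called higher, 24 in all, and none (0) lower, while 36 genes went up and 1 went down by that fold at an unadjusted p below 0.05. With replicate number as a block, 0.338% were called higher, 36 in all, and 0.00939% lower, 1 gene. Of the 8 members, 7 passed the filter on low values, and 1 was called without the block and 2 with it. Both called members were below 1 TPM in both controls and reached the mean of 1 TPM through the BMP6 libraries alone, so that their counts among the genes that passed the filter are no support of their own. Without the filter, over 28856 entries, 0 Smad genes were called in limma without the block (adjusted p = 0.663 for *Smad7* and 0.935 for *Smad6*), and 1 was called with it (0.0866 for *Smad7* and 0.308 for *Smad6*). Over all genes that fit without the block called 0, with 38 higher and 1 lower by 2-fold at an unadjusted p below 0.05, and with the block it called 19, all of them higher. The data are from bulk cells, so that a change in RNA per cell and a change in the share of cells that carry it cannot be told apart.

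**Figure D1:**
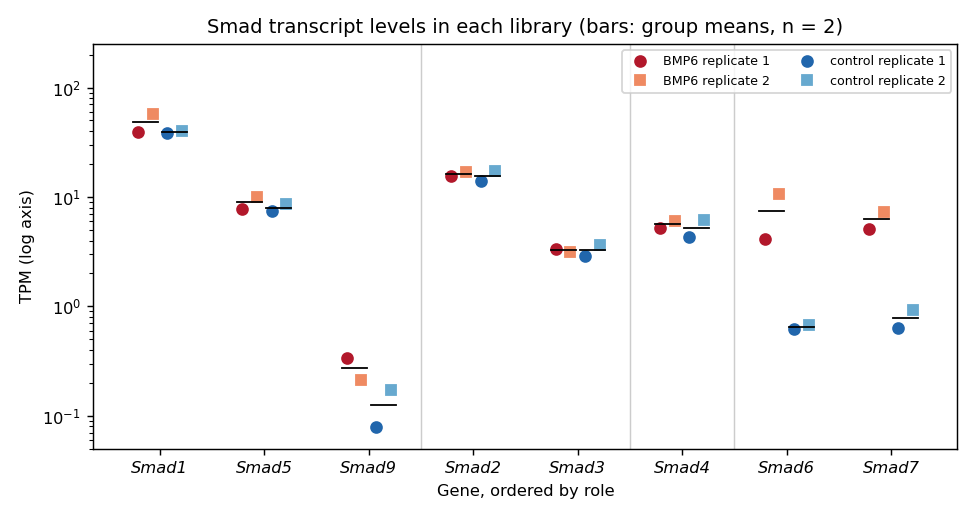
TPM of each Smad gene (log axis) in the 2 BMP6 libraries (red, orange) and the 2 control libraries (dark and light blue), with circles for replicate 1, squares for replicate 2, and bars for the group means (n = 2). *Smad6* and *Smad7* lie between 4.13 and 10.6 TPM with BMP6 and between 0.621 and 0.926 TPM without it, while the groups of *Smad1* to *Smad5* overlap and *Smad9* stays at or below 0.338 TPM.

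*Smad7* encodes the inhibitor that acts on both the BMP and the TGF-β branch. It was measured at 5.12 and 7.36 TPM in the BMP6 libraries and at 0.633 and 0.926 TPM in the controls (6.24 ± 1.59 against 0.780 ± 0.207 TPM, SD, n = 2 per group). Both BMP6 libraries lay above both controls, and the lower BMP6 library was 5.53 times the higher control. A separation of this kind was not rare in itself, since 17.4% of the 10645 genes had both BMP6 libraries above both controls. The ratio was alike in the 2 pairs, at 8.09-fold in pair 1 and 7.95-fold in pair 2. The difference in log2(TPM + 1), a scale on which low genes appear less changed than they are, was 2.01 ± 0.20 (SE, 95% interval 1.51 to 2.51), with an adjusted p of 0.0511 from limma, and with the replicate block the SE was 0.13 and the adjusted p 9.43e-05. The call without the block was also lost with a pseudocount of 5 TPM, where the difference of 0.95 fell short of 2-fold.

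*Smad6* encodes the inhibitor that acts mainly on the BMP branch. It was measured at 4.13 and 10.6 TPM with BMP6 and at 0.621 and 0.673 TPM without (7.39 ± 4.60 against 0.647 ± 0.037 TPM, SD, n = 2 per group). Again both BMP6 libraries lay above both controls, by at least 6.14 times, but they differed from each other more than those of *Smad7*, and the pairs gave 6.65-fold and 15.8-fold. The log2(TPM + 1) difference was 2.23 ± 0.37 (SE, 95% interval 1.32 to 3.14), with an adjusted p of 0.270 from limma, so that *Smad6* was not called in the unpaired comparison. With the replicate block the SE fell to 0.23, the 95% interval narrowed to 1.71 to 2.75 and the adjusted p was 0.00169, and *Smad6* was called. Leaving out BMP6 replicate 1 gave a difference of 2.82, and leaving out BMP6 replicate 2 gave 1.64. With 1 BMP6 library left, the gene's own spread comes from the 2 controls, and limma draws it toward that of all entries. Whether the 2 inhibitory genes differed in their response was not tested.

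**Figure D2:**
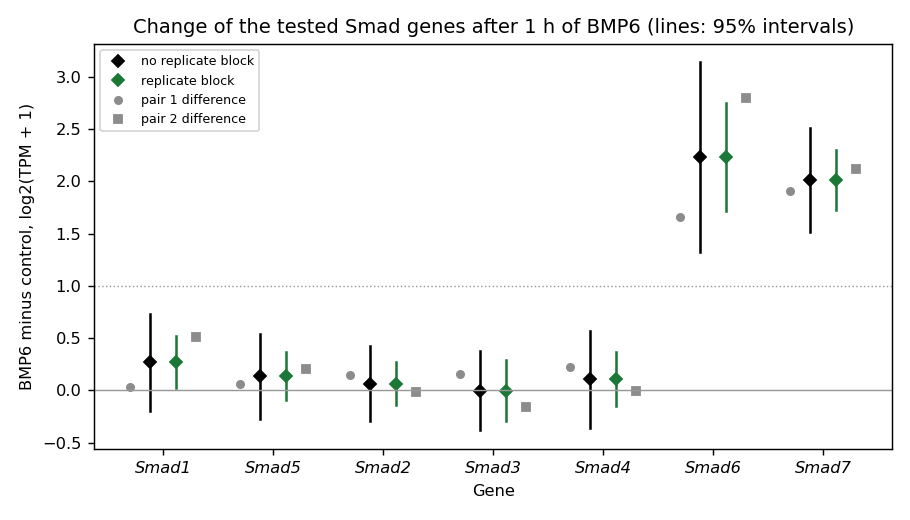
Difference between BMP6 and control on the log2(TPM + 1) scale for the 7 Smad genes tested, without (black) and with (green) the replicate block, with 95% intervals as lines and the 2 pairs in gray. The dotted line marks a 2-fold change, and the intervals of *Smad6* (1.32 to 3.14) and *Smad7* (1.51 to 2.51) lie above it, while those of the other 5 genes without the block include 0.

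The start of *Smad6* lies on chromosome 9, and its sequence is shown because this is the inhibitory gene with a promoter window in the RefSeq table used here. Windows of 300 bases, running from 250 bases before to 50 after the start site, were found for *Smad1*, *Smad3*, *Smad5*, *Smad6* and *Smad9*, and none for *Smad2*, *Smad4* and *Smad7*. Each was matched to a single place in GRCm39, the build of the files. Windows were searched on both strands for GGCGCC, a GC-rich sequence known to be bound by SMAD1 and SMAD5. They were also searched for GTCTG or its reverse complement CAGAC, one form of the core known to be bound by SMAD3 and SMAD4. Of all 32851 windows in the table, 11.9% held the first and 49.6% the second. The *Smad6* window held neither, and this says only that these exact letters are absent from it. It did hold GTCTAGAC, which carries GTCT and AGAC without the added G or C, so that the search did not count it. Of the 3 *Smad5* windows, 2 overlap and held the same single GGCGCC, and the other held one GTCTG or CAGAC, and the *Smad9* window held GGCGCC. The windows of *Smad1* and *Smad3* held none of these. The windows of *Smad6* and of *Smad9*, the BMP-branch gene with the lowest level, are given 5′ to 3′ on the coding strand, with any match in capitals.

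Smad6, chr9:63929292-63929591, minus strand, GRCm39: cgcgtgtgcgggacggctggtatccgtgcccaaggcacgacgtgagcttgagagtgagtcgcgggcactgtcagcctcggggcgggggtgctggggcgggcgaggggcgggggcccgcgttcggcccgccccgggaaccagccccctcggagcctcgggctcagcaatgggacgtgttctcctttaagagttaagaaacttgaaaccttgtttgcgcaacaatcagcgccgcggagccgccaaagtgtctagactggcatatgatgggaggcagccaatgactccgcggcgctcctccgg

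Smad9, chr3:54662753-54663052, plus strand, GRCm39: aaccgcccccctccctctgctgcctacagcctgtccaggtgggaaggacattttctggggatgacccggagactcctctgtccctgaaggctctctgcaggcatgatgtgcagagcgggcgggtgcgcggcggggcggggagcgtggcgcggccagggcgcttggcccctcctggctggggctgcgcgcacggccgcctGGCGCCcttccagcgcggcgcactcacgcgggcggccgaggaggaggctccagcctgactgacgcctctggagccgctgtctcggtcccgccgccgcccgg

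The GGCGCC of the *Smad9* window began 51 bases before the start site. A longer element, in which GGCGCC and GTCT are set 5 bases apart (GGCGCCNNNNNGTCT, where N is any base), is known from BMP target genes. Searched on both strands within 5 kb of the annotated start, it was found in 0.533% of 21765 protein-coding genes. It was found in 0 of the 5 Smad genes looked at singly, *Smad1*, *Smad3*, *Smad5*, *Smad6* and *Smad9*. *Smad2*, *Smad4* and *Smad7*, which had no promoter window, were not looked at singly. Of the *Id* genes called higher after BMP6, the same search found matches near *Id2* and *Id3* and none near *Id1*. Only these exact letters within 5 kb were counted, so that other forms of the element and sites farther away were not searched. To show the form of the element, matches upstream of *Id2* and *Id3* are given with 5 bases on each side and the fixed letters in capitals.

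Id2, 1585 bases upstream, chr12:25148848-25148872, minus strand, GRCm39: cgcctGGCGCCagagaGTCTgctcc

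Id3, 2957 bases upstream, chr4:135867846-135867870, plus strand, GRCm39: accctGGCGCCaggctGTCTggggc

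No binding was measured here, so that these matches describe sequence and no more.

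The higher level of the inhibitory genes was seen over all their exons. *Smad6* (chr9:63860358-63929341, minus strand) was carried by the 4-exon transcript ENSMUST00000041029.6, which took at least 99.2% of the gene's TPM in every library. Relative to the reads of each library, coverage of its 4 exons was 6.44, 80.0, 11.8 and 6.23 times the control level in pair 1 and 14.4, 16.2, 19.8 and 16.2 times in pair 2, from the 5′ to the 3′ exon. The 80.0-fold value belongs to the 57-base exon 2, where the control had a coverage of 0.491. The other *Smad6* transcript, 300 bases within the first exon, held at most 0.809% of the TPM. *Smad7* (chr18:75500600-75529006, plus strand) was likewise carried by 1 transcript of 4 exons, ENSMUST00000026999.10, with the other 2 listed at 0. Its exon ratios ran from 5.56 to 19.6 in pair 1 and from 4.46 to 9.29 in pair 2. All 8 exon ratios of each inhibitory gene were above 1. In both groups the last *Smad7* exon was covered more deeply than the first, 6.43 and 8.87 times with BMP6 and 4.22 and 4.66 times without.

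**Figure D3:**
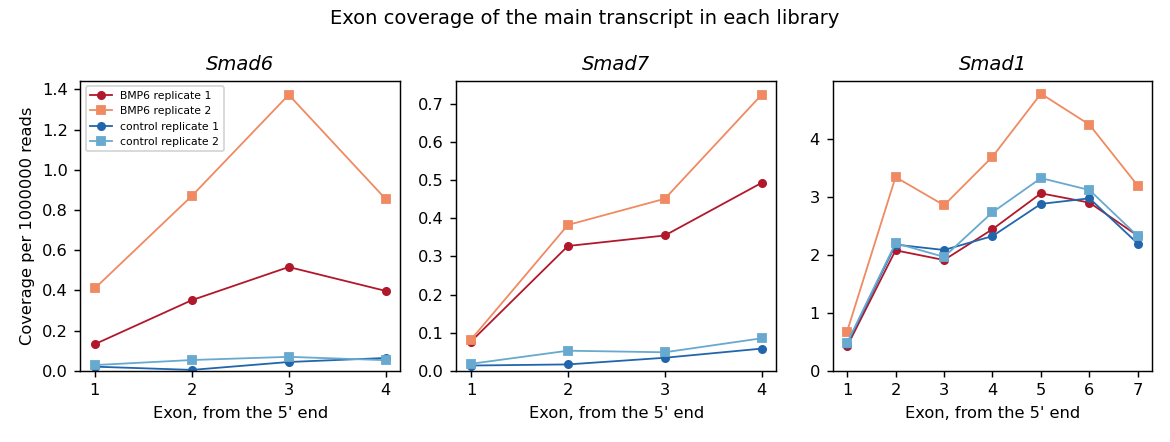
Mean read coverage of each exon per 1000000 rebuilt reads, numbered from the 5′ end, for the main transcripts of *Smad6*, *Smad7* and *Smad1*, 1 line per library, with a separate linear axis for each gene. Both BMP6 lines lie above both control lines at all 4 exons of *Smad6* and *Smad7*, whereas for *Smad1* only BMP6 replicate 2 stands apart, at all 7 exons.

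At the transcript level, 19346 transcripts were tested, and 0.031% were called higher and 0.0362% lower, or 6 and 7 transcripts. Of the 19 Smad transcripts, 9 passed the filter and 0 of them were called by limma. The main *Smad7* transcript had an unadjusted p of 0.00126 and an adjusted p of 0.238, and the main *Smad6* transcript an unadjusted p of 0.00805 and an adjusted p of 0.539. With the replicate block 0 transcripts were called by limma, and at an unadjusted p below 0.05 with at least 2-fold change 215 were higher and 185 lower.

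Among the receptor-regulated genes of the BMP branch, *Smad1* was by far the most abundant and did not pass the test. It had 38.9 and 57.9 TPM with BMP6 and 38.1 and 40.4 TPM in the controls (48.4 ± 13.4 against 39.3 ± 1.60 TPM, SD, n = 2 per group). BMP6 replicate 2 alone was high, and BMP6 replicate 1 lay between the 2 controls. The log2(TPM + 1) difference was 0.27 ± 0.19 (95% interval -0.19 to 0.73, adjusted p = 1 from limma), and with the block the interval was 0.02 to 0.52, the unadjusted p 0.0376 and the adjusted p 0.356. Without BMP6 replicate 2 the difference was -0.01, and without BMP6 replicate 1 it was 0.55. The excess in that library was seen along the whole gene, since the ratio in pair 2 was 1.35 to 1.52 over the 7 exons and that in pair 1 was 0.917 to 1.06. In pair 2, 1.74% of the 10645 genes had a difference at least as large as that of *Smad1*, and in pair 1 the figure was 47.2%.

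*Smad5*, the closest in function to *Smad1*, was measured at 7.77 and 10.0 TPM with BMP6 and at 7.41 and 8.57 TPM without. The groups overlapped and the log2(TPM + 1) difference was 0.13 ± 0.17 (95% interval -0.27 to 0.54, adjusted p = 1 from limma). *Smad9*, the remaining receptor-regulated gene of this branch, was near the floor of the measurement, at 0.338 and 0.213 TPM against 0.0793 and 0.173 TPM, or 114 and 69 rebuilt reads against 27 and 57. Its groups did not overlap, but the ratios of 4.26-fold in pair 1 and 1.23-fold in pair 2 were unlike each other, and the gene was below the mean of 1 TPM needed for the test. In the fit without that filter its log2(TPM + 1) difference was 0.18 ± 0.08 (SE) with an adjusted p of 0.981 from limma.

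*Smad2* and *Smad3* transmit TGF-β and activin signals. *Smad2* had 15.4 and 17.0 TPM with BMP6 and 13.9 and 17.2 TPM without, and *Smad3* had 3.35 and 3.14 TPM against 2.91 and 3.62 TPM. For both genes the controls spanned the values of the BMP6 libraries, and the pairs went in opposite directions. The log2(TPM + 1) difference was 0.06 ± 0.14 for *Smad2* (95% interval -0.29 to 0.42) and -0.00 ± 0.16 for *Smad3* (95% interval -0.38 to 0.38), each with an adjusted p of 1 from limma. *Smad4*, the common partner, had 5.19 and 6.08 TPM with BMP6 and 4.31 and 6.12 TPM without, a difference of 0.11 ± 0.19 (95% interval -0.36 to 0.57, adjusted p = 1 from limma). In these 5 genes the upper ends of the intervals without the block lay between 0.38 and 0.73 on the log2(TPM + 1) scale. The lower ends lay between -0.38 and -0.19, so that neither increases nor decreases up to those sizes were excluded. Their median difference was 0.11, beside 0.02 over all entries tested. Of the 7 members tested, 4 were higher in both pairs, *Smad1* and *Smad5* beside the inhibitory genes, and so were 36.7% of the 10645 genes.

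In the order of the mean levels over the 4 libraries, *Smad1* (43.8 TPM) was followed by *Smad2* (15.9 TPM), *Smad5* (8.45 TPM) and *Smad4* (5.42 TPM), and each of these lay above the next in all 4 libraries with no overlap of their ranges. *Smad6* (4.02 TPM), *Smad7* (3.51 TPM) and *Smad3* (3.25 TPM) came next, and from *Smad4* to *Smad3* the ranges of neighbours overlapped. *Smad9* (0.201 TPM) was last and below all others in every library. The place of the inhibitory genes depended on the treatment. In both controls they ranked below *Smad3*, whereas both ranked above it with BMP6, and in BMP6 replicate 2 *Smad6* (10.6 TPM) came behind *Smad1* and *Smad2* alone, ahead of *Smad5* (10.0 TPM).

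The makeup of the family pool changed accordingly. *Smad6* and *Smad7* together took 11.5% and 16.0% of the summed Smad TPM in the BMP6 libraries and 1.85% and 2.06% in the controls. Set against the summed TPM of *Smad1*, *Smad5* and *Smad9*, the inhibitory pair stood at 19.7% and 26.4% with BMP6 and at 2.75% and 3.26% without. In pair 1 the whole family was 12.3 TPM higher with BMP6, of which 8.0 TPM came from *Smad6* and *Smad7*. In pair 2 it was 34.7 TPM higher, with 16.4 TPM from the inhibitory pair and 17.5 TPM from *Smad1*.

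Most Smad genes were carried by a single transcript. One transcript took at least 98.1% of the TPM of *Smad1*, *Smad4*, *Smad6* and *Smad7* in every library, and 1 transcript was listed for *Smad3* and for *Smad9*. *Smad2* was divided among 3 transcripts whose shares differed between libraries of the same group. ENSMUST00000168423.9 took 27.5% and 61.0% of the *Smad2* TPM with BMP6 and 41.3% and 26.8% without. ENSMUST00000091831.13, which has 1 exon fewer, took 47.6% and 22% against 38.6% and 38.4%. ENSMUST00000113930.3, a short transcript of 1305 bases, took 24.9% and 16.8% against 20.1% and 34.8%. The groups overlapped for the first and the last of these, and for ENSMUST00000091831.13 one BMP6 library lay above and the other below the controls. The share of the short transcript was 24.2% on average by TPM and 5.08% by rebuilt reads. The exons of ENSMUST00000168423.9 did not follow its share alike. Relative to the reads of each library, coverage of its 90-base exon 3 was 1.15 times the control level in pair 1 and 1.09 times in pair 2. For exon 4 these ratios were 0.716 and 2.30. The coverage of exon 3 was 289 and 313 in the BMP6 libraries and 255 and 288 in the controls. That of exon 4 was 94.9 and 246 against 134 and 108. Whether the shares reflect the assignment of reads to transcripts was not tested. *Smad5* was carried by ENSMUST00000069557.14 at 79.0% and 99.2% with BMP6 and 85.3% and 87.5% without. The rest was nearly all ENSMUST00000109874.2, with 20.9%, 14.3% and 12.2% in BMP6 replicate 1, control replicate 1 and control replicate 2, and listed at 0 in BMP6 replicate 2. The *Smad5* entry also included a 172-base transcript named *Gm55294*, which added at most 0.790%.

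**Figure D4:**
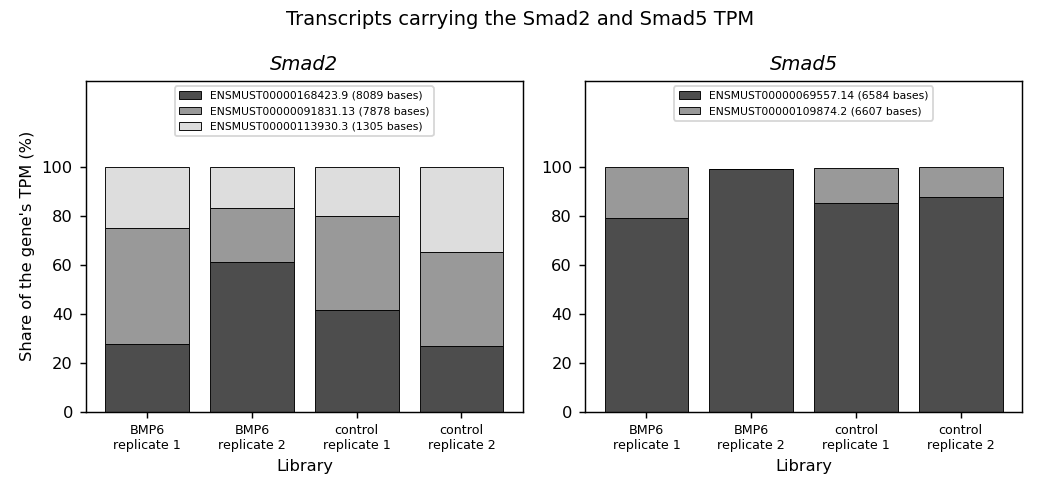
Share of the TPM of *Smad2* and *Smad5* (percent) carried in each library by the transcripts with a mean level of at least 1 TPM or a mean share of at least 10%. The shares estimated for the 3 *Smad2* transcripts differ between libraries of the same group, and the second *Smad5* transcript is at 0 in BMP6 replicate 2. Whether the shares reflect the assignment of reads to transcripts was not tested.

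The genes of the family lie on 5 chromosomes, and each inhibitory gene shares its chromosome with a receptor-regulated one. *Smad3* (chr9:63554049-63665276) and *Smad6* are both on the minus strand of chromosome 9, with 195 kb and 4 entries between them. *Smad4* (chr18:73772080-73836851), *Smad7* and *Smad2* (chr18:76374651-76444034) lie in this order on chromosome 18, with 1664 kb and 846 kb, and 35 and 10 entries, between them. *Smad1* is on chromosome 8 (80065024 to 80126147), *Smad5* on chromosome 13 (56850823 to 56890190) and *Smad9* on chromosome 3 (54663003 to 54708678). The tested entries nearest to the inhibitory genes within 100 kb were *Gm36033*, 11.3 kb from *Smad6*, with a log2(TPM + 1) difference of 0.18 ± 0.19, and *Dym* and *Ctif*, 80.6 kb and 35.3 kb on either side of *Smad7*, with -0.09 ± 0.16 and 0.05 ± 0.17 (SE, adjusted p = 1 from limma for each). Of the others, *Mmaa* beside *Smad1*, *Tgfbi* beside *Smad5*, *Alg5* and *Rfxap* beside *Smad9*, *Aagab* beside *Smad3*, and *Mex3c* and *Elac1* beside *Smad4* also had an adjusted p of 1, with differences from -0.14 to 0.30. The microRNA entry *Mir6358*, 70.9 kb from *Smad2*, had 1.91 and 2.25 TPM against 0.495 and 0.846 TPM, a difference of 0.89 ± 0.17 with an adjusted p of 0.478 from limma and 0.0193 with the replicate block. This entry, too, reached the filter on low values through the BMP6 libraries. A member was overlapped by 3 entries, *Gm55295* and *Gm55300* in *Smad5*, both at 0, and *Gm50126* opposite to *Smad4*, at or under 0.433 TPM. The libraries were unstranded, so that reads of *Gm50126* and *Smad4* cannot be told apart where they overlap.

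The genes around the Smads were grouped by their role, in lists chosen with earlier results of these data known. Of 11 type I and type II receptors, which phosphorylate the receptor-regulated SMADs, 9 were tested and 0 passed the adjusted p of 0.1 in limma with or without the block. The median difference was 0.16, with the largest shifts in *Bmpr1a* (0.29 ± 0.17) and *Bmpr1b* (-0.24 ± 0.15), both type I receptors for BMPs. Of 9 phosphatases and anchors, 8 were tested and 0 passed, with a median of 0.01 and the largest shifts in *Ppm1a*, a SMAD phosphatase (-0.21 ± 0.22), and *Zfyve16*, an endosomal anchor (0.14 ± 0.22). Of 14 ubiquitin ligases and deubiquitinases that act on SMADs or their receptors, 13 were tested and 0 passed, with a median of 0.13 and the largest shifts in *Smurf2* (0.27 ± 0.24) and *Wwp1* (0.25 ± 0.14), ligases that SMAD7 is known to recruit. Over all genes, 0.263% passed the adjusted p in the higher direction without the block and 1.32% with it, 28 and 141 genes, and 0.00939% and 0.319% in the lower direction.

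Of 15 nuclear partners and corepressors, 12 were tested and 1 was called higher, beside 0.225% of the 10645 genes. *Skil*, which encodes the corepressor SnoN, had 36.2 and 44.5 TPM with BMP6 and 10.0 and 12.7 TPM without. Both BMP6 libraries were above both controls, and the difference was 1.74 ± 0.16 with an adjusted p of 0.0418 from limma. Its relative *Ski* had 4.81 and 5.58 TPM against 2.57 and 4.29 TPM, a difference of 0.51 ± 0.22 with an adjusted p of 1, and 0.151 with the block.

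Most of the other BMP targets were also higher after BMP6. Of 12 direct BMP targets other than Smads, 9 were tested and 5 were called higher, beside 0.225% of the 10645 genes. Their median difference was 1.35, beside 0.02 over all entries tested. The list was chosen with earlier results of these data known, so that its count and median are no support of their own. *Id1*, *Id2* and *Id3*, inhibitors of myogenic transcription factors, rose by 2.33 ± 0.17, 1.26 ± 0.13 and 2.46 ± 0.13 on the log2(TPM + 1) scale, with adjusted p of 0.0164, 0.0511 and 0.0104 from limma. *Atoh8* rose by 2.04 ± 0.14, from 9.68 and 12.4 TPM to 49.9 and 46.3 TPM, and *Hey1*, a transcriptional repressor, rose by 1.35 ± 0.14. With the replicate block 8 passed the adjusted p and 7 were called, beside 1.32% and 0.338% of the 10645 genes in the higher direction. *Id4* (1.58) and *Msx1* (1.05) were added to the calls. *Nog*, which encodes a BMP antagonist, passed with a difference of 0.75 that was below 2-fold. The control means of *Id4* (0.814 TPM) and *Nog* (0.687 TPM) were below 1 TPM. Both genes reached the filter through the BMP6 libraries, so that their passing is no support of its own. *Bambi*, which encodes a decoy receptor, had 1.30 and 1.13 TPM against 1.56 and 1.07 TPM and did not pass.

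Of 9 genes known to respond to TGF-β, 7 were tested and 2 were called higher, beside 0.225% of the 10645 genes. Their median difference was 0.44. This list, too, was chosen with earlier results of these data known, so that its count is no support of its own. *Ccn2*, which encodes a matrix protein, had 31.9 and 32.5 TPM with BMP6 and 9.48 and 9.56 TPM without (1.66 ± 0.11, adjusted p = 0.0132 from limma). *Klf10* had 165 and 193 TPM against 46.4 and 54.9 TPM (1.80 ± 0.13, adjusted p = 0.0132 from limma). *Pmepa1*, whose protein sequesters SMAD2 and SMAD3, had a difference of 0.78 ± 0.19 that passed with the block alone (adjusted p 0.00352, against 0.873 without).

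Some immediate early genes also differed. Of 14, 12 were tested and 2 were called higher, *Junb* (1.39 ± 0.09) and *Arc* (1.51 ± 0.19), beside 0.225% of the 10645 genes. This list was also chosen with earlier results of these data known. *Ier3* (0.99 ± 0.11) and *Dusp1* (0.90 ± 0.10) passed the adjusted p without reaching 2-fold. *Myc* (-0.45 ± 0.10) passed in the lower direction with the block alone (adjusted p 0.0303), as did the muscle marker *Des* (-0.24 ± 0.12, adjusted p 0.0312). Of 7 reference genes 0 passed in limma with or without the block, and the largest shifts were those of *Gapdh* (-0.13 ± 0.14) and *Hsp90ab1* (-0.08 ± 0.07).

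**Figure D5:**
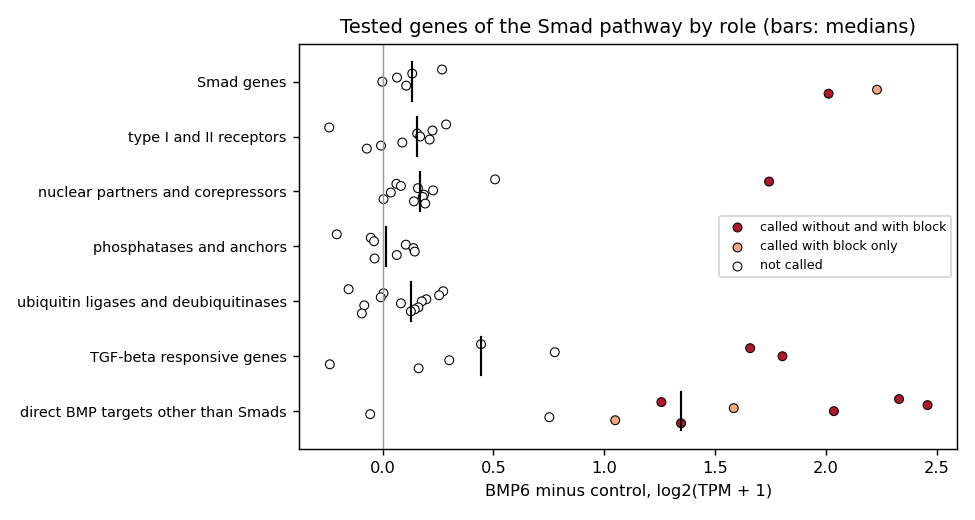
Difference between BMP6 and control on the log2(TPM + 1) scale for each tested gene of the Smad family and of 6 groups of pathway genes, with bars for the medians and fill for genes called at 2-fold and an adjusted p below 0.1 without (red) or only with (orange) the replicate block. The called genes are the 2 inhibitory Smads, *Skil*, *Ccn2*, *Klf10* and 7 of the direct BMP targets, and no receptor, phosphatase, anchor or ubiquitin enzyme is called.

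The genes whose profile was most like that of the inhibitory Smads were found by the distance between centered log2(TPM + 1) values over the 4 libraries. For *Smad6* the nearest were *Smad7* at a distance of 0.58, *Prr9* (0.64), *Grhl1* (0.65), *Dlx2* (0.79) and *Klf10* (0.81). For *Smad7* they were *Prr9* (0.20), *Klf10* (0.26), *Grhl1* (0.27), *Skil* (0.30) and *Pwwp2b* (0.31). The distances from *Smad6* were the longer ones, and *Smad6* was not itself among the 5 nearest to *Smad7*. *Grhl1*, which encodes an epithelial transcription factor, had 4.68 and 6.67 TPM with BMP6 and 0.223 and 0.805 TPM without. *Dlx2*, a homeobox gene known to respond to BMPs, had 6.25 and 7.82 TPM against 0.122 and 0.489 TPM. These genes were chosen by their profile over the same 4 libraries, so that a shared order of the libraries follows from the choice.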

How the data were processed

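Poly(A) RNA of 4 cultures was made into unstranded Smart-seq2 and Nextera XT libraries and sequenced as paired reads of 100 bases. Per the submitters' processing notes and the study's methods, the authors aligned reads to GRCm39 with GENCODE annotation using STAR 2.7.11a, sorted them with SAMtools 1.17 and quantified a merged annotation with StringTie 2.2.1. The authors deposited TPM and FPKM per gene, and coverage per gene, transcript and exon (the signal values used here). The joined TPM table equaled the library tables for all 55267 entries, and the number of columns not used was 0. The files of covered reference transcripts were not used here.

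TPM is relative to each library's total, so that a change in a few abundant genes shifts all others. Since no raw counts were used, tests were two-sided and ran in limma 3.58.1 (R 4.3.3, lmFit and eBayes with a trend) on log2(TPM + 1), over 13128 entries with a mean of at least 1 TPM. A call needed at least 2-fold change and a Benjamini-Hochberg adjusted p below 0.1, after the study's cut-off, and 2483 entries without a usable name (Gm, Mir, Rik, os or -ps names, or none) were not called. Rebuilt reads are coverage times length divided by 100. They are not independent molecules. Intervals are for the mean difference, and rest on the spread between libraries of each group, which limma draws toward that of all entries. With the block they rest on the spread left after replicate number is taken out. The labels give the pairing as a shared batch number, and after subtraction of each group's mean the libraries that share a number correlated at 0.563. With 2 libraries against 2, an exact permutation test of a single value could not give a p below 0.333, and none was run.

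Named were all 8 Smad genes, their transcripts with a mean of at least 1 TPM or a mean share of at least 10%, the list members past the adjusted p with or without the block or else the 2 with the largest difference, the 5 genes nearest in profile to *Smad6* and *Smad7*, entries overlapping a member or next to it within 100 kb, and the highest marker of each list. The Schwann cell list is not reported here. *Ski*, *Bambi*, *Kdr*, *Ptprc*, *Pdgfra*, *Col3a1*, *Ly6a*, *Dcn*, *Lum* and *Pax7* were added after their values were seen. The members, lists and motifs were chosen with earlier results of these data known. Promoter windows came from a RefSeq table of GRCm38.p6 and were placed on GRCm39 by exact match, and gene starts from GENCODE on GRCm39. The script was tested on simulated data. Alternatives were other normalizations, pseudocounts and filters, the block, limma without a trend, voom on rebuilt reads, and leaving out each library.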

Additional observations from a re-analysis of the deposited data

How the results depend on the processing

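Of the 8 Smad genes, 1 was called without the replicate block and 2 with it, and 2 were called with voom on rebuilt reads and the block. The number was 0 with a pseudocount of 5 TPM, without the filter on low values, with a mean of at least 5 TPM, which removed both inhibitory genes, and at an adjusted p below 0.05. Leaving out 1 library gave 1 to 2. Leaving out the filter while keeping the block, an alternative chosen after seeing the data, gave 1, *Smad7* (adjusted p = 0.0866), and not *Smad6* (0.308). *Smad6* kept its direction in all 15 alternatives with a value, and the log2 difference was 2.23 with the replicate block and 3.42 with voom and the block, both called, and 1.64 to 2.82 when leaving out 1 library (adjusted p 0.000167 to 0.935 over all alternatives). *Smad7* kept its direction in all 15, and its call was lost at 0.95 with a pseudocount of 5 TPM, at 2.01 without the filter (28856 entries tested) and at 2.01 for an adjusted p below 0.05. The other genes were never called, and their direction turned when 1 library was left out: the differences ran from -0.013 to 0.55 for *Smad1*, -0.033 to 0.30 for *Smad5*, -0.082 to 0.21 for *Smad2*, -0.12 to 0.12 for *Smad3* and -0.11 to 0.32 for *Smad4*. The main transcripts did the same, with -0.011 to 0.55 for *Smad1*, -0.12 to 0.32 for *Smad4*, -0.15 to 0.48 for *Smad5*, -0.12 to 0.12 for *Smad3*, and -0.23 to 0.89, -0.55 to 0.26 and -0.69 to 0.19 for ENSMUST00000168423.9, ENSMUST00000091831.13 and ENSMUST00000113930.3 of *Smad2*. Smad transcripts called were 0 under every alternative run in limma.

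Over all genes 24 were called, against 11 at an adjusted p below 0.05, 15 with a pseudocount of 5 TPM, 0 without the filter, 15 with a mean of at least 5 TPM, 37 with the replicate block, 19 with the block and no filter, 12 without a trend and 62 with voom and the block, and 18 to 34 when leaving out 1 library. Without the filter, 38 genes were higher and 1 lower by 2-fold at an unadjusted p below 0.05. Over all transcripts 13 were called, against 0 with a pseudocount of 5 TPM, 0 without the filter, 0 with the replicate block, 47 without a trend and 0 when leaving out 1 library. Apart from the smaller number of genes tested under a stricter filter, the cause of these shifts was not tested. With 2 libraries per group the spread of a gene rests on few values. With the filter on low values the block changed the call of *Smad6* alone, and without the filter that of *Smad7* alone.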
